A study of Mus musculus with 12 samples.

Results

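Proteins that bind the mRNA of myelin genes were followed here as transcripts: Qk, Hnrnpa2b1, Hnrnpa1, Hnrnpk, Hnrnpf, Fmr1, Elavl1 and Pura, 8 of the 21937 genes in the deposited table, chosen by name. RNA was sequenced from a fraction of brain enriched for myelin, the wrapping of axons made by oligodendrocytes. The fraction came from male c57Bl6/N mice, all wild type, with no treatment named in the labels, and each age had 3 samples, 12 in total. The youngest mice were 18 days old (P18), followed by mice of 75 days (P75), of 6 months and of 24 months. The labels do not say whether the samples of an age came from separate animals, so a p-value reflects only how far these samples spread, which may be technical.

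Oligodendrocytes carry some myelin mRNAs, above all that of myelin basic protein (Mbp), in granules along microtubules to the sheath, where they are translated. hnRNP A2, made from Hnrnpa2b1, binds a short element in the 3′ untranslated region of Mbp mRNA and marks it for transport. The quaking proteins, made from Qk, bind myelin mRNAs and act on their splicing, export from the nucleus and stability, and mice with the quaking mutation make too little myelin. The other proteins splice, stabilise, move or silence mRNA in many cell types, so their transcripts in a brain fraction are not specific to oligodendrocytes.

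Quaking proteins recognise the letters ACUAAC or ACUAAU in RNA, with a nearby half-site UAAC or UAAU. To show what such a site looks like in the mRNAs followed here, the 3′ untranslated region of the longest protein-coding transcript of each gene (GENCODE M21, build GRCm38, whereas the submitters' processing notes name mm9) was searched on the RNA strand for ACTAAC or ACTAAT with TAAC or TAAT at most 20 bases away and not overlapping. Each held 1 pair in the members Qk, Hnrnpa1, Fmr1 and Pura. It is printed for the first 3 and for Cdkn1b, a cell cycle inhibitor whose mRNA quaking proteins are known to bind, with the core and the half-site in capitals and as DNA letters.
Qk: TAATaccaacctACTAAC
Hnrnpa1: ACTAATtgtaTAAC
Fmr1: ACTAACttctaaaactgTAAT
Cdkn1b: ACTAATgctcccacagaattgatttTAAC
These lie in 3′ untranslated exons at chr17:10206550-10206567 (minus strand), chr15:103244429-103244442 (plus), chrX:68717756-68717776 (plus) and chr6:134922878-134922906 (plus). Of 20515 regions searched, 32.4% held the core and 13.6% the pair. Qk, whose region is 7014 bases long, held the core 5 times and the pair 1 time, and 54.5% of the regions of similar length also held the pair. For Pura, Cdkn1b, Fmr1 and Hnrnpa1 the share among regions of similar length was 35.6%, 31.2%, 21.4% and 6.97%. The region of Mag, known to be under quaking control, held neither, and the sites in introns and coding sequence were not searched.

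The samples held 20299052 to 27214385 reads in genes. Oligodendrocyte marker genes (10 genes) took 10.9% to 23.0% of all values at P18 and 5.68% to 9.82% at the later ages, and none of them was at 0 in any sample. Neuron markers (8 genes) took 0.591% to 0.867%, 0.843% to 0.984%, 0.711% to 0.806% and 0.687% to 0.737% from the youngest to the oldest age. The largest part of this share was Snap25, with a mean value of 141430 at P75 and 88328 at 6 months. Between these ages 3 of the 8 genes rose and 3 fell, as given below. Astrocyte markers (7) took 0.399% to 0.496% over all ages. Microglia markers (6) took 0.0142% to 0.0175%, 0.0221% to 0.0263%, 0.0267% to 0.0330% and 0.0348% to 0.0414% at the successive ages, higher at each age than at the one before with no overlap. Endothelium markers (5) took 0.00272% to 0.00323%, 0.00357% to 0.00400%, 0.00494% to 0.00599% and 0.00335% to 0.00567%. Marker RNA of other cell types was thus present at every age, and its part in the results was not tested. In such bulk samples fewer cells of a type and less RNA per cell cannot be told apart. The deposited values are read counts scaled by a size factor of each library, called normalised counts below.

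All 8 members passed the filter on low values, a value of at least 10 in at least 3 samples. Levels between genes were compared per kilobase of the longest protein-coding transcript. Hnrnpa2b1 stood highest, at 9968 (8349.7 to 12253) normalised counts per kilobase (mean and range of 12 samples). Next were Hnrnpk at 2429 (1662 to 3418), Qk at 1707 (1343 to 2468) and Hnrnpf at 1357 (1149 to 1651). Hnrnpk and Qk overlapped in range, as did Qk and Hnrnpf. Fmr1 at 367 (257 to 433) and Elavl1 at 355 (298 to 421) overlapped with each other and lay below all of these. Pura at 29.9 (20.6 to 39.8) and Hnrnpa1 at 26.2 (11.5 to 47.2) were the lowest and overlapped.

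The levels of some members depend on how reads shared with gene copies were counted. Of all 50-base windows of the transcript, 46.4% in Hnrnpa1 were found unchanged in transcripts of 19 other genes, all of them pseudogenes. In Hnrnpf the share was 67.3% and in Hnrnpk 37.8%, against 2.72% in Elavl1, 2.44% in Hnrnpa2b1, 0.530% in Fmr1, 0.270% in Qk and 0% in Pura. Hnrnpa1 rested on only 20 to 102 reads per sample. Its level, and those of Hnrnpf and Hnrnpk, are therefore uncertain, and whether the copies move with age was not tested.

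**Figure D1:**
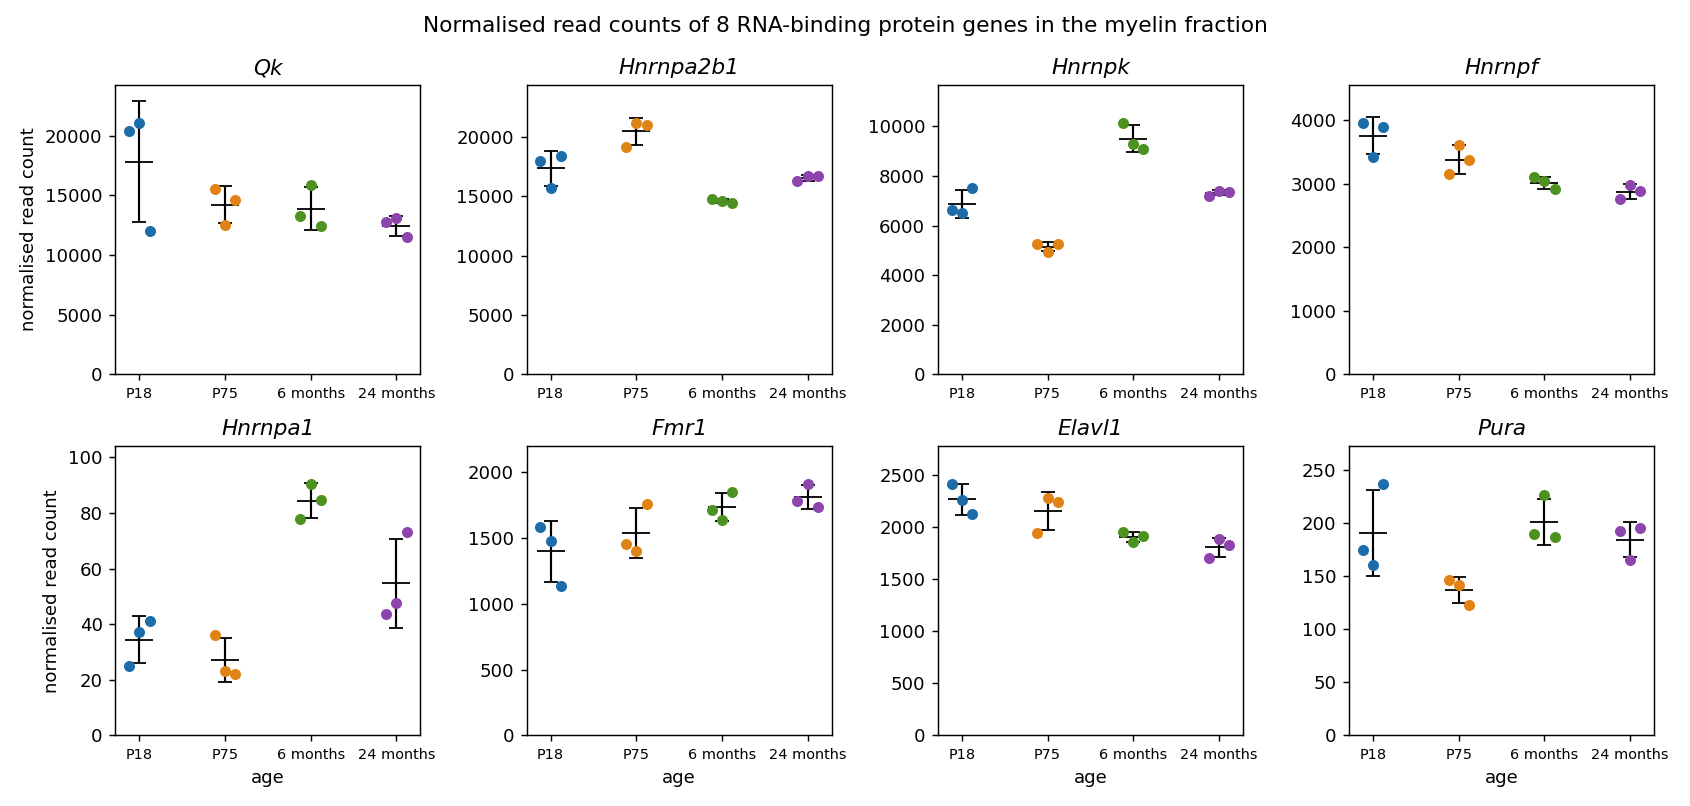
Normalised read count (vertical axis, from 0) of each of the 8 genes by age, with 1 point per sample, the mean as a bar and the SD as the error bar (n = 3). Hnrnpk is lowest at P75 and highest at 6 months, Hnrnpa2b1 runs the other way at these ages, and 1 of the 3 P18 samples of Qk lies apart from the other two.

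Of the 8 members 7 differed at some age (limma moderated F test, Benjamini-Hochberg adjusted over 14987 genes), against 77.4% of all genes tested. In P75 against P18, 2 members fell and 6 did not pass, with 40.4% of all genes called (21.7% higher, 18.7% lower). At 6 months against P75, 3 rose, 1 fell and 4 did not pass, with 52.4% of genes called (27.1% higher, 25.4% lower). At 24 months against 6 months, 1 fell and 7 did not pass, with 19.2% of genes called (10.8% higher, 8.34% lower). Over the whole span, 24 months against P18, 2 rose, 3 fell and 3 did not pass, with 62.5% of genes called (32% higher, 30.5% lower). The values of the 2 ages did not overlap in 3, 5, 3 and 4 members in these comparisons, against 47.1%, 62.3%, 43.2% and 66.1% of all genes. None of these counts sets the members apart from genes in general. The median log2 fold change of the members was -0.22, 0.069, -0.10 and -0.048 in the 4 comparisons, beside 0.017, 0.0029, 0.030 and -0.0051 over all genes. The comparisons share samples and are not independent. Some counts moved with the setting or with 1 library. With scaling to the library total, 1 member rose and 0 fell from P18 to P75, the opposite balance, and DESeq2 also had 1 that rose. After quantile normalization 3 fell from P75 to 6 months, 2 fell from 6 to 24 months and 1 rose from P18 to 24 months. With only the ages compared, 1 fell from P18 to P75, 2 fell from 6 to 24 months and 1 rose from P18 to 24 months. With the stricter filter on low values (at least 50 in at least 6 samples) 1 rose in that last comparison, because Hnrnpa1 was no longer tested. From P18 to P75, 1 member rose without P18 replicate 3 and only 1 fell without P75 replicate 3. From P75 to 6 months 2 fell without P75 replicate 1. From 6 to 24 months 2 fell without P18 replicate 3 or 24 months replicate 3, and from P18 to 24 months 1 rose without P18 replicate 1 or 24 months replicate 3.

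**Figure D2:**
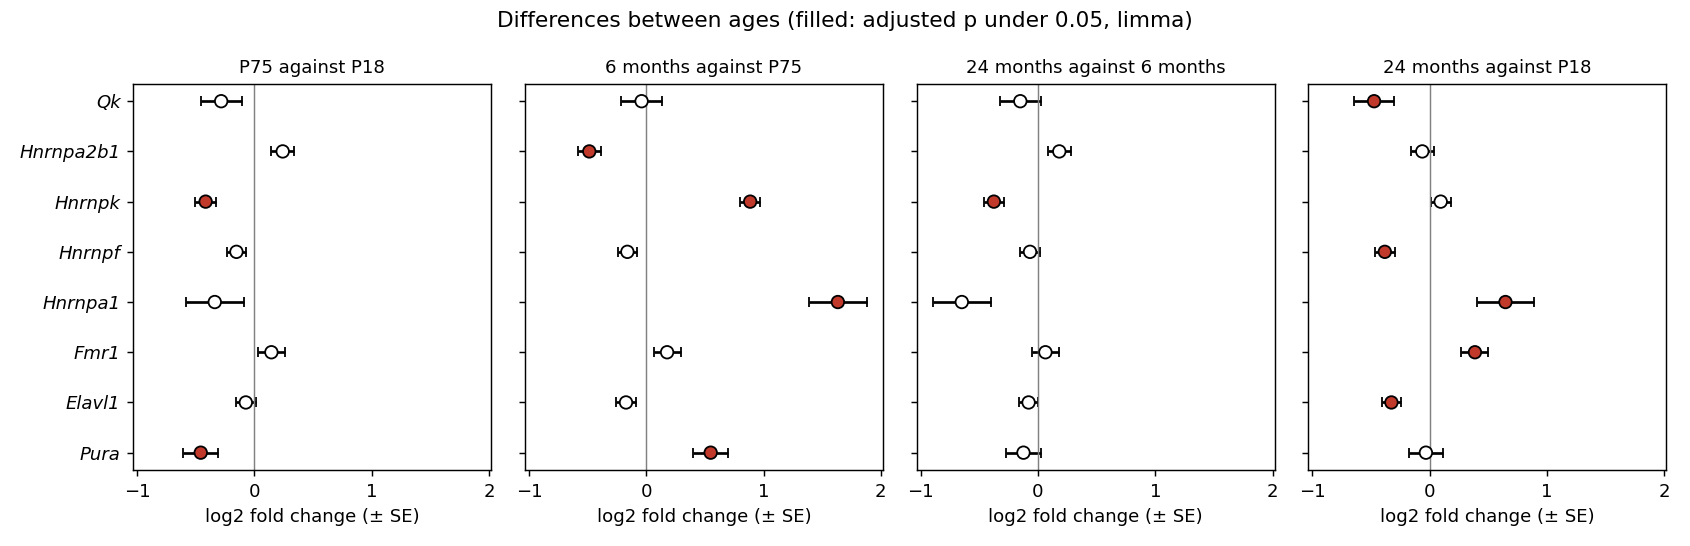
Log2 fold change with its SE (horizontal axis) of each gene in 4 comparisons of ages, filled where the adjusted p passed 0.05. Hnrnpk passed in each of the 3 consecutive comparisons, in alternating directions, and Qk, Hnrnpf, Fmr1 and Elavl1 passed only over the whole span.

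Hnrnpa2b1, the transport factor of Mbp mRNA, was most abundant at P75 and least at 6 months. In replicates 1 to 3 it had 17953, 15663 and 18367 at P18, then 19164, 21173 and 20986 at P75, 14786, 14545 and 14428 at 6 months, and lastly 16269.5, 16649.7 and 16718 at 24 months (normalised counts). All 3 samples at P75 lay above every sample of the other ages, and all 3 at 6 months lay below every other sample. From P75 to 6 months it fell on the log2 scale by 0.49 ± 0.10 (fold change ± SE, with 3 samples an age; limma adjusted p = 6.91e-04), from 20441 ± 1109.7 to 14586 ± 182 (SD). The difference of P75 from P18 was 0.24 ± 0.10 (adjusted p = 0.0640), and it passed without P18 replicate 3 (0.28, adjusted p = 0.0328), in DESeq2 (0.24, adjusted p = 0.00897) and with scaling to the library total (0.37, adjusted p = 0.0342). It was 0.17 without P18 replicate 2 and only 0.030 (adjusted p = 0.856) after quantile normalization, under which the fall from P75 to 6 months was -0.30 (adjusted p = 0.0354). Its F test over the ages (adjusted p = 0.00278) did not pass after quantile normalization (0.0704). At 24 months the level was 0.18 ± 0.10 from that at 6 months and -0.063 ± 0.10 from that at P18, and neither difference passed (adjusted p = 0.207 and 0.599).

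The ratio of Hnrnpa2b1 to its best known cargo in the same sample had its lowest mean at P18, where the mean of Mbp was highest. The log2 ratio of Hnrnpa2b1 to Mbp was -7.68, -8.48 and -6.86 at P18, then -6.38, -5.74 and -5.67 at P75, -6.24, -7.14 and -6.36 at 6 months, and lastly -6.78, -6.47 and -6.18 at 24 months. P18 replicates 1 and 2 were the lowest of the 12 samples, while P18 replicate 3 fell within the range of 6 months. The ratio differed between ages in an exact permutation test over all partitions of the 12 samples (adjusted p = 0.0435 over 7 values). Mbp itself had means of 3.80e+06, 1.27e+06, 1.45e+06 and 1.49e+06 normalised counts at the successive ages, and P18 and P75 did not overlap. Its difference of P75 from P18 did not pass (-1.50 ± 0.60, limma adjusted p = 0.0561), but was larger than that of Hnrnpa2b1 (0.24 ± 0.10). At 24 months against P18 the differences were -1.26 ± 0.60 for Mbp and -0.063 ± 0.10 for Hnrnpa2b1. The call of the ratio was lost in 9 of the 12 fits that leave out 1 sample (adjusted p = 0.0588 to 0.0933). Those were the fits without P18 replicates 1 or 2, P75 replicates 2 or 3, 6 months replicates 1 or 3, or any of the 24 months samples.

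Hnrnpa1 encodes the close relative hnRNP A1, a splicing regulator that shuttles between nucleus and cytoplasm. Its normalised counts were 24.9, 37.3 and 41.2 at P18, then 36.1, 23.2 and 22.1 at P75, 78.0, 90.5 and 84.7 at 6 months, and lastly 43.6, 47.6 and 73.1 at 24 months. The 3 samples at 6 months were above all others, and P18 and P75 overlapped. Hnrnpa1 rose by 1.63 ± 0.25 from P75 to 6 months (adjusted p = 4.61e-05). It was 0.65 ± 0.25 higher at 24 months than at P18 (adjusted p = 0.0308), a call that was lost when P18 replicate 1 was left out (0.44, adjusted p = 0.152) or 24 months replicate 3 (0.42, adjusted p = 0.168), after quantile normalization (0.36, adjusted p = 0.205) or with only these 2 ages in the fit (adjusted p = 0.0567). From 6 months to 24 months the difference was -0.65 ± 0.25 and did not pass (adjusted p = 0.0729), but it passed without P18 replicate 3 (adjusted p = 0.0498) or 24 months replicate 3 (-0.87, adjusted p = 0.0339), after quantile normalization (-0.77, adjusted p = 0.0365) and with only these 2 ages in the fit (adjusted p = 0.0262). The log2 ratio of Hnrnpa2b1 to Hnrnpa1 was 8.96 ± 0.41 (mean ± SD of 3 samples) at P18, then 9.54 ± 0.46, 7.42 ± 0.12 and 8.25 ± 0.38 at the later ages, and it differed between ages (exact permutation test, adjusted p = 0.00614).

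Hnrnpk encodes hnRNP K, which binds runs of C in RNA and is known to bind Mbp mRNA and to act on its translation. Hnrnpk had normalised counts of 6610.4, 6494 and 7525 at P18, then 5241, 4936 and 5249 at P75, 10150.5, 9282 and 9105 at 6 months, and lastly 7204, 7397 and 7367 at 24 months. No sample of P75 overlapped with any other age, nor did any of 6 months. Hnrnpk fell by 0.42 ± 0.087 from P18 to P75 (adjusted p = 0.00120), rose by 0.89 ± 0.087 to 6 months (adjusted p = 9.27e-07) and fell by 0.38 ± 0.087 to 24 months (adjusted p = 0.00877). At 24 months it stood 0.094 ± 0.087 from P18 (adjusted p = 0.362). The first fall did not pass when values were scaled to the library total (-0.29, adjusted p = 0.0676).

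Pura encodes Pur-alpha, a nucleic acid binding protein found in RNA transport granules of neurons. Pura was low, with normalised counts of 175, 160.4 and 237 at P18, then 146, 142 and 123 at P75, 190.1, 226 and 187 at 6 months, and lastly 192, 165 and 195 at 24 months. All 3 samples at P75 lay below every other sample, and the other ages overlapped. Pura fell by 0.46 ± 0.15 from P18 to P75 (adjusted p = 0.0203) and rose by 0.55 ± 0.15 to 6 months (adjusted p = 0.00504). The fall was lost when P18 replicate 3 was left out (-0.29, adjusted p = 0.0972), and likewise for P75 replicate 3 (-0.38, adjusted p = 0.0831), with scaling to the library total (-0.33, adjusted p = 0.129) or with only these 2 ages in the fit (adjusted p = 0.0504). Its F test also did not pass without P75 replicate 3 (adjusted p = 0.0785). The paralog Purb had 65.5 ± 11.2, 29.5 ± 20.9, 69.8 ± 7.07 and 50.3 ± 9.63 normalised counts at the successive ages. Purb moved the same way, with a fall of 1.33 ± 0.34 from P18 to P75 (limma adjusted p = 0.00492). It rose by 1.43 ± 0.34 to 6 months (adjusted p = 0.00207), on low values of 13.3 to 76.3 over the 12 samples. The log2 ratio of Pura to Purb did not pass over the ages (exact permutation test, adjusted p = 0.179). It passed without P75 replicate 1 (adjusted p = 0.0323).

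Hnrnpk, Hnrnpa1, Pura and Hnrnpa2b1 changed between P75 and 6 months alongside many other genes. The second principal component of all tested genes (17.3% of the variance) set P18 and 6 months, with scores above 0 and up to 29.1, apart from P75 (-37.9 to -21.2) and 24 months (down to -18.97). Hnrnpk, Hnrnpa1 and Pura had their lowest mean at P75, at the bottom of that component, and Hnrnpa2b1 had its highest. No batch is named in the labels and none could be compared within, and the part of such a shift in these results was not tested.

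**Figure D3:**
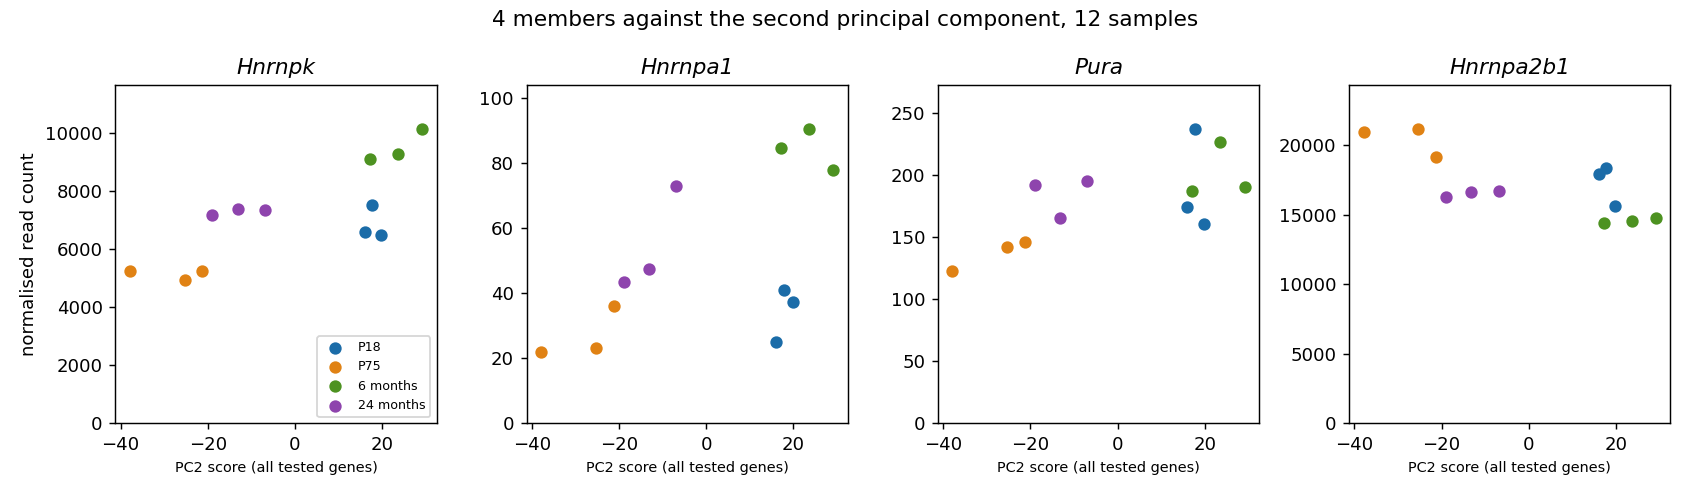
Normalised read count (vertical axis, from 0) of 4 genes against the score of each of the 12 samples on the second principal component of all tested genes, coloured by age. Hnrnpk, Hnrnpa1 and Pura are low and Hnrnpa2b1 is high in the P75 samples, whose scores run from -37.9 to -21.2.

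Qk was uneven between the P18 samples. Normalised counts of Qk were 20374, 21095 and 11977 at P18, then 15508, 12556 and 14644 at P75, 13253, 15911 and 12455 at 6 months, and lastly 12783, 13083 and 11481 at 24 months. P18 replicates 1 and 2 lay above all other samples, and P18 replicate 3 lay below all others except 24 months replicate 3. The F test over the ages did not pass (adjusted p = 0.104), but it did without P18 replicate 3 (adjusted p = 0.000223), in DESeq2 (0.0231) and with scaling to the total without Mbp (0.0371), with 0.000223 to 0.381 over the alternatives. From P18 to P75 the difference was -0.28 ± 0.17 (adjusted p = 0.207), with -0.55 (adjusted p = 0.00155) without P18 replicate 3 and -0.14 (adjusted p = 0.583) without P18 replicate 2. It was also smaller without P18 replicate 1 and with scaling to the library total. From P18 to 24 months Qk fell by 0.47 ± 0.17 (adjusted p = 0.0252). The call was lost on leaving out P18 replicate 1 (-0.35, adjusted p = 0.115), P18 replicate 2 (-0.33, adjusted p = 0.129) or 24 months replicate 3 (-0.42, adjusted p = 0.0855), or with only these 2 ages in the fit (adjusted p = 0.0548). Without P18 replicate 3 it was -0.74. P18 replicate 3 also had the lowest Mbp value of its age and stood apart on the third principal component (-24.3 against -0.61 and 3.59).

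Hnrnpf encodes hnRNP F, which binds runs of G and, with hnRNP H, acts on splicing. Its normalised counts were 3963, 3421 and 3896 at P18, then 3154, 3609 and 3369.5 at P75, 3101, 3038 and 2913 at 6 months, and lastly 2759, 2986 and 2893 at 24 months. All samples at 6 and 24 months were below all at P18, and neighbouring ages overlapped apart from P75 and 6 months. Hnrnpf fell by 0.38 ± 0.084 from P18 to 24 months (adjusted p = 8.10e-04), with no step between consecutive ages that passed (adjusted p = 0.156, 0.118 and 0.604). The step from P75 to 6 months passed after quantile normalization (-0.20, adjusted p = 0.0447), and the F test was lost with scaling to the library total (0.0702). Hnrnph1 and Hnrnph2, which encode its relatives hnRNP H and H2, ran the other way: from P18 to 24 months they rose by 0.33 ± 0.10 (adjusted p = 0.00875) and 0.42 ± 0.094 (adjusted p = 9.78e-04). The log2 ratio of Hnrnpf to their sum was -1.23, -1.26 and -1.15 at P18, then -1.74, -1.67 and -1.91 at P75, -1.82, -1.71 and -1.90 at 6 months, and lastly -1.95, -1.99 and -1.95 at 24 months. Every P18 sample lay above every later one, and the ages differed (exact permutation test, adjusted p = 0.00614).

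Elavl1 encodes HuR, which stabilises mRNAs that hold AU-rich elements. Across the samples it had normalised counts of 2421, 2261 and 2125 at P18, then 1949, 2281 and 2243 at P75, 1959, 1859 and 1913 at 6 months, and lastly 1711, 1887 and 1827 at 24 months. Neighbouring ages overlapped, and 24 months lay below P18. Elavl1 fell by 0.33 ± 0.084 from P18 to 24 months (adjusted p = 0.00289), and this did not pass with scaling to the library total (-0.25, adjusted p = 0.0597), as was so for its F test (0.0713). The step from P75 to 6 months (-0.17 ± 0.084, adjusted p = 0.0953) passed without P75 replicate 1 (-0.24, adjusted p = 0.0321) and after quantile normalization (-0.23, adjusted p = 0.0236). The log2 ratio of Elavl1 to the sum of the neuronal family members Elavl2, Elavl3 and Elavl4 was -2.64, -2.65 and -2.77 at P18, then -2.46, -2.37 and -2.35 at P75, -2.38, -2.38 and -2.45 at 6 months, and lastly -2.36, -2.41 and -2.46 at 24 months. Every P18 sample lay below every later one (exact permutation test over the ages, adjusted p = 0.0359). With the replicate number as a block the ratio did not pass (adjusted p = 0.0851). Elavl3 fell by 0.72 ± 0.093 from P18 to P75 (adjusted p = 2.07e-05), from 8344 ± 343 to 5063 ± 469, while Elavl1 differed by -0.074 ± 0.084 (adjusted p = 0.511), or by 0.051 with scaling to the library total.

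Fmr1 encodes FMRP, a repressor of translation whose loss causes fragile X syndrome and which is known to bind Mbp mRNA. Its normalised counts were 1582, 1473 and 1134 at P18, then 1450.0, 1403 and 1753 at P75, 1710.2, 1636 and 1846 at 6 months, and lastly 1779, 1909 and 1736 at 24 months. P18 and 24 months did not overlap, while neighbouring ages did. Fmr1 rose by 0.39 ± 0.12 from P18 to 24 months (adjusted p = 0.00797), and no consecutive step passed (adjusted p = 0.340, 0.206 and 0.737). Without P18 replicate 3, the lowest sample, the rise was 0.24 (adjusted p = 0.0393). Its F test did not pass without 24 months replicate 2 (adjusted p = 0.0616). Its paralog Fxr2 rose by 0.82 ± 0.10 from P75 to 6 months (adjusted p = 5.96e-06) and Fxr1 by 0.28 ± 0.10 (adjusted p = 0.0287). The log2 ratio of Fmr1 to the sum of both was -1.37 ± 0.13, -1.10 ± 0.24, -1.48 ± 0.22 and -1.26 ± 0.051 at the successive ages and did not pass (exact permutation test, adjusted p = 0.117). It passed without P75 replicate 1 (adjusted p = 0.0459).

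**Figure D4:**
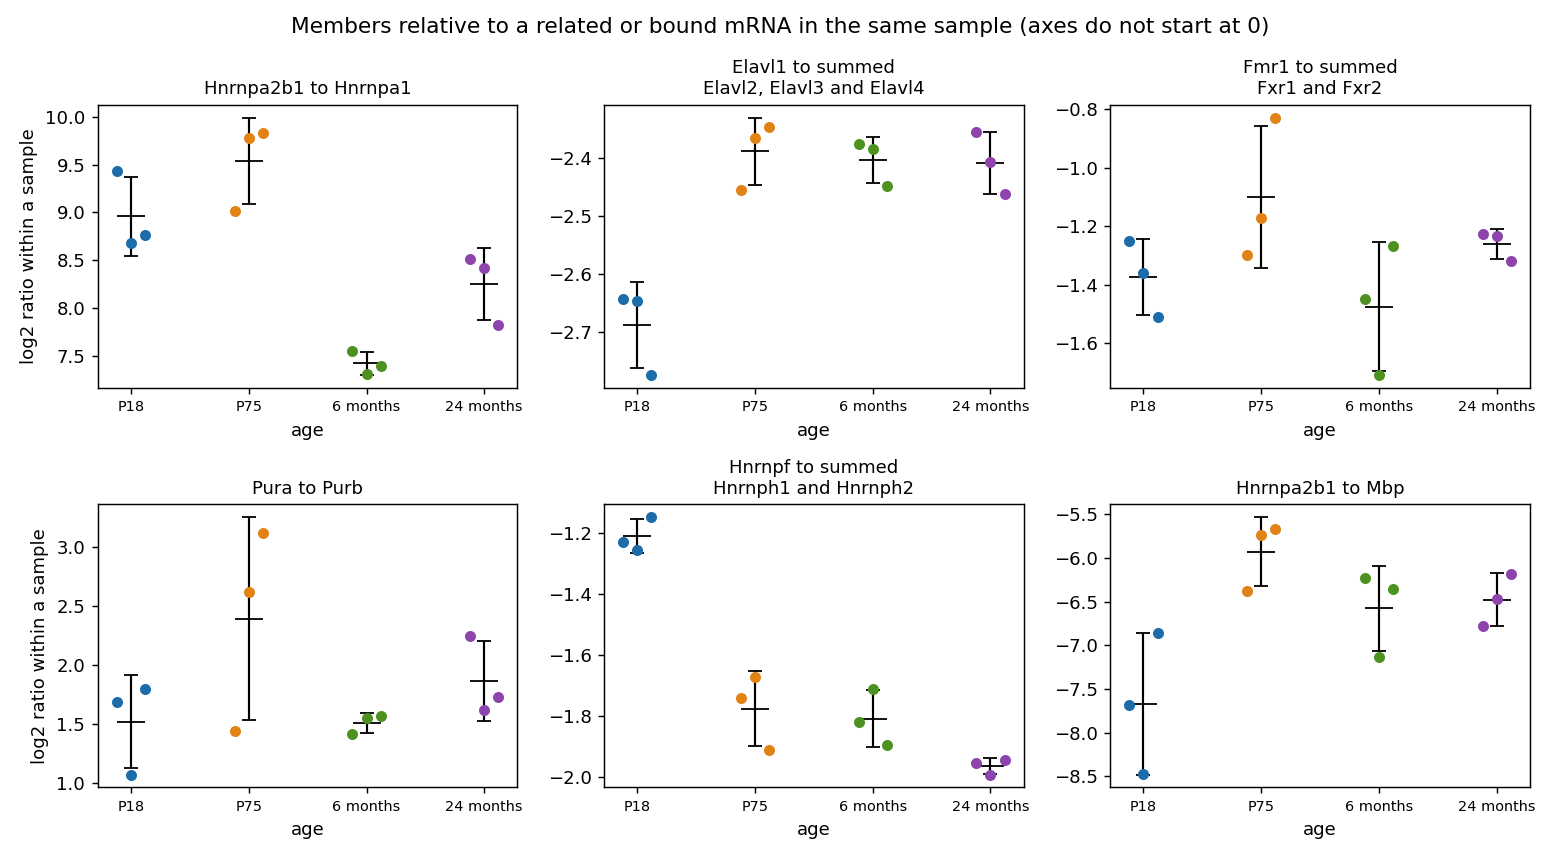
Log2 ratio within each sample (vertical axes, not from 0) of a member to a related or bound mRNA, with 1 point per sample, the mean as a bar and the SD as the error bar (n = 3). Hnrnpf relative to Hnrnph1 and Hnrnph2 is highest in the 3 P18 samples, and Elavl1 relative to its neuronal family is lowest in them.

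Together the 8 members took 0.202 ± 0.014% of all values at P18, 0.209 ± 0.00576% at P75, 0.198 ± 0.00887% at 6 months, with the lowest mean of 0.185 ± 0.00516% at 24 months (SD, n = 3). The share did not pass over the ages (exact permutation test, adjusted p = 0.107). It passed as a share of all values without Mbp (adjusted p = 0.00409), without P18 replicate 1 (0.0480) or without P18 replicate 2 (0.0431).

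The genes whose pattern over the 12 samples was most like that of a member were found by Pearson's r of log2(value + 1). This is a description over samples that share their libraries, and how high r runs for other genes was not tested. The genes named are among those with the highest r of 11476 compared, so the choice itself favours a high r. For Qk they were Zeb2 (r = 0.986), a transcription factor gene of oligodendrocyte differentiation, Glod4 (0.939) and Acss1 (0.937). For Hnrnpa2b1 they were Wdr75 (0.965), Fam133b (0.964) and Rfc3 (0.957), and for Hnrnpk they were Srp54c (0.984), Pip5k1a (0.981) and Dync1li1 (0.976), a light intermediate chain of the motor dynein. Hnrnpf was most like Dennd2a (0.958), Ldb2 (0.955) and Ywhab (0.954), and Hnrnpa1 most like Kbtbd4 (0.974), Kcnk3 (0.966) and Grm4 (0.962). Fmr1 was most like Fundc1 (0.965), Tmem5 (0.953) and Sypl (0.952), Elavl1 most like Itch (0.972), Cdk14 (0.951) and Ccdc75 (0.947), and Pura was like Nob1 (0.930) and Slc25a44 (0.916).

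Relatives of the members in the same protein families were 24, all tested. From P18 to P75, 7 rose, 7 fell and 10 did not pass, with a median log2 fold change of -0.080 beside 0.017 over all genes, of which 40.4% were called. From P75 to 6 months, 6 rose, 8 fell and 10 did not pass, with a median of -0.13 beside 0.0029 over all genes and 52.4% of them called. Over the whole span 7 rose and 11 fell, with a median of -0.20 beside -0.0051 and 62.5% called. Hnrnph3, a smaller relative of hnRNP H, rose by 1.27 ± 0.15 from P18 to P75 and by 0.50 ± 0.15 to 6 months (adjusted p = 1.23e-05 and 0.0123), from 136 ± 19.1 at P18 to 527 ± 18.5 at 24 months. Purg, the third Pur gene, fell by 0.51 ± 0.10 and 0.83 ± 0.10 in the same steps (adjusted p = 0.00114 and 8.80e-06). In 24 months against 6 months 1 relative rose, Hnrnpa0 (0.35 ± 0.11), named after its value was seen. It did not pass without 6 months replicates 1 or 2, or without 24 months replicates 1 or 2 or with scaling to the library total, with or without Mbp (0 relatives rose in each of these). In the same comparison 1 relative fell without P18 replicate 3, in DESeq2 and with scaling to the total without Mbp, and 19.2% of all genes were called. From P75 to 6 months, 3 rose and 5 fell without P75 replicate 2, 5 fell without 6 months replicate 1, and 5 fell with either scaling to a library total. From P18 to P75, 4 fell with scaling to the library total.

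**Figure D5:**
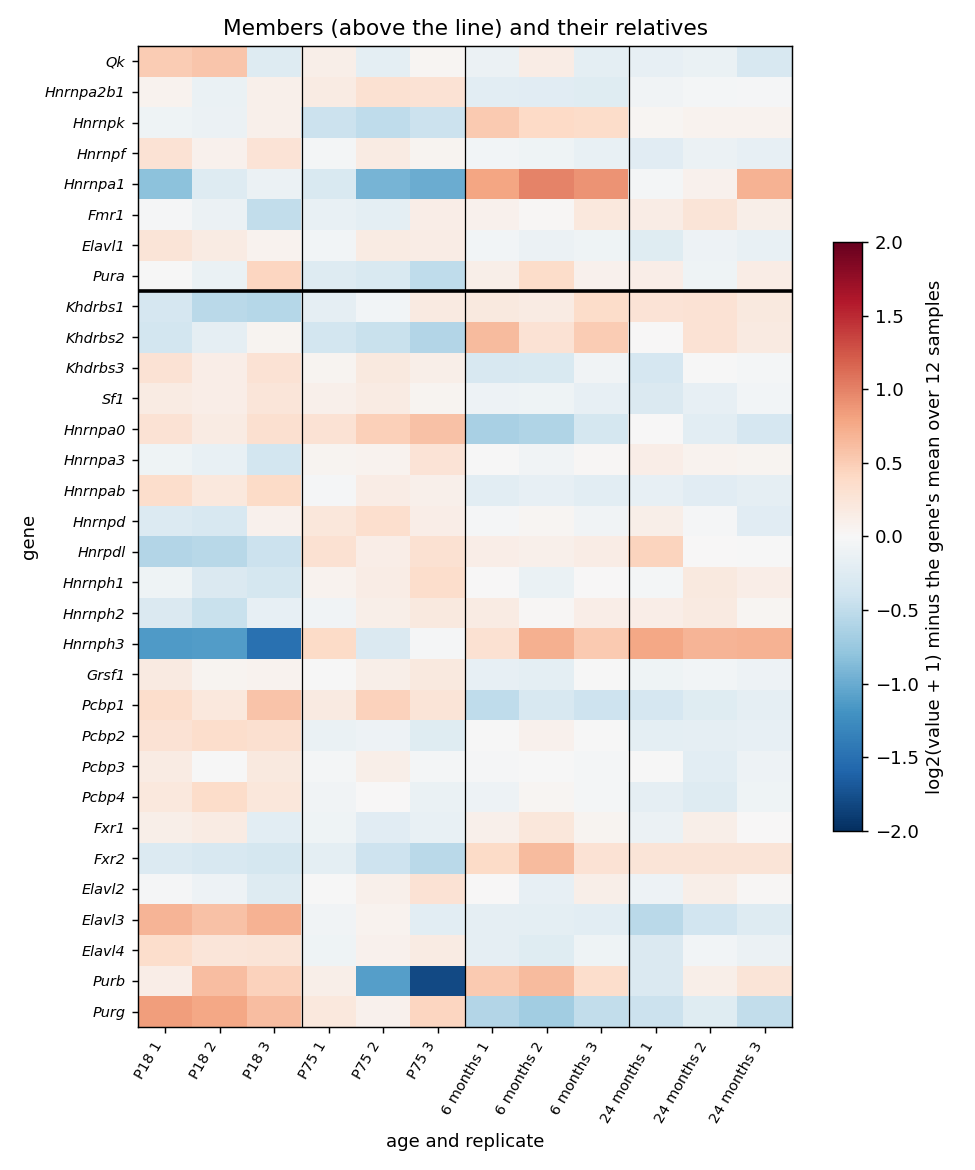
Log2(value + 1) minus the gene's mean over 12 samples (colour) for the 8 members above the line and 24 relatives below it, with samples in columns by age and replicate. Hnrnph3 is low and Purg and Elavl3 are high in the P18 columns, and Hnrnpa1 is high at 6 months.

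Partners of RNA transport were held in a list of 19 genes, 18 of them tested. It comprised granule proteins, kinesin and dynein subunits and Fyn, the kinase that acts on hnRNP A2 at the sheath to release Mbp mRNA for translation. Between P18 and P75, 2 rose, 4 fell and 12 did not pass, with 40.4% of all genes called. Between P75 and 6 months, 11 rose, 2 fell and 5 did not pass, with a median of 0.35 beside 0.0029 over all genes, of which 52.4% were called (27.1% higher). Markers of other cell types moved in the same step. Of 5 endothelium markers 3 rose (median of the 5, 0.64), and of 6 microglia markers 3 rose and 1 fell (median 0.32). Of 7 astrocyte markers 2 rose and 1 fell (median 0.11). Of 8 neuron markers 3 rose and 3 fell (median 0.19). Syt1 (2.34) and Slc17a7 (1.41) were among the neuron markers that rose. Snap25, Stmn2 and Tubb3 were the 3 that fell, Snap25 from a mean of 141430 to 88328 normalised counts. The list holds Kif5a and Kif5c, motor genes of neurons, and the part of other cells in its count was not tested. Fyn fell from 5807 ± 72.2 at P18 to 2907 ± 209 at P75 (SD; adjusted p = 2.18e-07). The granule proteins Caprin1 and G3bp2 rose by 0.59 ± 0.09 and 0.42 ± 0.092 from P75 to 6 months (adjusted p = 5.10e-05 and 0.00124), and so did Dctn1, a subunit of the dynein activator dynactin, by 0.82 ± 0.095 (adjusted p = 3.83e-06). Hnrnpk, Hnrnpa1 and Pura rose in that comparison and Hnrnpa2b1 fell. Between 6 and 24 months 4 fell (Ckap5, Dctn1, Fyn and Stau2) and 0 rose, with 19.2% of all genes called. That count was 1 without 6 months replicate 1 or 24 months replicate 1, and 2 without 6 months replicate 2 or 24 months replicate 2. Between P18 and P75, 4 rose with scaling to the library total, and between P75 and 6 months 1 fell without 6 months replicate 1.

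The list of mRNAs that members bind or splice held 12 genes, all tested, with Map1b and Myrf found under older symbols. At P75 against P18, 2 rose, 8 fell and 2 did not pass, with a median of -0.66 beside 0.017 over all genes, of which 40.4% were called. In the same step 6 of 10 oligodendrocyte markers fell (median -1.03), some of which, such as Cnp, are in both lists, and the part of that fall in this count was not tested. Cnp, which encodes a phosphodiesterase found in uncompacted myelin, fell by 1.71 ± 0.15 (adjusted p = 6.69e-07) and Cdkn1b fell by 0.33 ± 0.082 (adjusted p = 0.00403). Map1b, a microtubule protein gene whose mRNA both quaking proteins and FMRP bind, rose by 0.31 ± 0.10 (adjusted p = 0.0179). Mbp, as above, did not pass. At 6 months against P75, 3 rose and 2 fell, with 52.4% of all genes called, and at 24 months against 6 months Map1b and Cnp fell. Without P18 replicate 2 or P75 replicate 3 the number that fell from P18 to P75 was 5, and without P18 replicate 1 or P75 replicate 2 the number that rose was 1. For 6 months against P75 the number that fell was 1 without any 1 sample of P75 or 6 months, without 24 months replicate 2, without a filter, after quantile normalization or with the replicate block, and 5 rose without P18 replicate 3.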

How the data were processed

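The deposited values are a signal: reads counted per gene, each library divided by its own size factor, with 2 decimals kept, as the values show. TopHat, HTSeq, DESeq and mm9 are named in the submitters' processing notes, without versions. Annotation, filters and strand setting are not given in the sources used here. Whole reads were recovered from the steps between values, with 100.0% of values whole within 0.0061 in every library. For 3 libraries that step differed from 1 by less than 1%. No column was left out.

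Values were tested as log2(value + 1), which understates changes of low genes, with limma 3.58.1 in R 4.3.3 (mean-variance trend, 12 samples in 4 age groups, two-sided, Benjamini-Hochberg over 14987 genes, threshold 0.05). The 7 within-sample values (6 ratios, 1 share) were tested by exact permutation of the F statistic across ages, whose smallest p is 6.49e-05. Alternatives were edgeR 4.0.16 and DESeq2 1.42.0 on recovered reads, pseudocounts of 0.5 and 5, other filters and scalings, only the ages compared, a replicate block and leaving out each sample. The limma code was tested on simulated data.

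Members and lists were chosen with earlier results of these data known. Named were all members, the 3 genes most like each (mean of at least 50, with unnamed transcripts, pseudogenes and small RNAs left out), up to 4 genes per list with the lowest F test p, and the genes in ratios, except 2 genes that are not reported here. Of the 4 lists of 24, 19, 12 and 38 genes, the last is in the closing section.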

Additional observations from a re-analysis of the deposited data

How the results depend on the processing

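The number of genes changed from 6 to 24 months was 2876, 1782 with scaling to the library total, and 1230 to 3966 when 1 sample was left out. It was 1279 and 1495 without 6 months replicates 1 and 2, and 1510.0 and 1230.0 without 24 months replicates 1 and 2. The other 3 counts of changed genes moved by less than 1.5 times. Scaling to the library total raised the median of all genes by 0.125 from P18 to P75 and moved the share of higher calls from 53.7% to 73.7%. From 6 to 24 months the share went from 56.5% to 46.3%, and to 44.9% without Mbp in the total. Under that scaling the difference of Elavl1 from P18 to P75 became 0.051, below that shift, and those of Hnrnpa2b1 and Pura from P18 to 24 months became 0.013 and 0.043. Qk from P75 to 6 months became 0.061 after quantile normalization. None of these 4 differences passed in either setting. With 1 sample left out, Pura from P18 to 24 months ranged from -0.15 to 0.13 and Qk from P75 to 6 months from -0.14 to 0.034.

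Of the 7 within-sample values, the share of the 8 members passed without Mbp in the total (adjusted p = 0.00409). The ratio of Elavl1 to its neuronal family was lost with the replicate block (0.0851), and the block changed no other call of a member, a ratio or the share. With 1 sample left out, adjusted p ranged from 0.0431 to 0.210 for the share, from 0.0135 to 0.0933 for Hnrnpa2b1 to Mbp, from 0.0459 to 0.284 for Fmr1 to its paralogs and from 0.0323 to 0.479 for Pura to Purb. Deviations from the age means correlated at -0.185 to 0.165 in the 18 same-numbered pairs, and 6 of 12 samples correlated best with their own number. Correlations of unlike-numbered pairs were not set beside these, so whether replicate numbers pair the samples was left undecided. With 1 sample left out, the count of members that differed at any age was 6 to 8. Under scaling to the library total, Hnrnpf and Elavl1 both lost the limma F test (adjusted p = 0.0702 and 0.0713). Hnrnpa2b1 lost it after quantile normalization (0.0704), and Qk gained it in DESeq2 (0.0231) and with scaling to the total without Mbp (0.0371). The cause of these shifts was not tested. Of the member differences, 331 of 348 kept direction and side of the threshold under the other settings and 368 of 384 with a sample left out. Hnrnpa1 rests on 20 to 102 reads per sample, which limits its precision, and why it has so few was not tested.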

Other observations

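Other splicing and mRNA-binding proteins were held in a list of 38 genes, all tested. From P18 to P75, 6 rose, 8 fell and 24 did not pass, with a median log2 fold change of -0.022 beside 0.017 over all genes (limma; 40.4% of all genes called). From P75 to 6 months, 8 rose, 8 fell and 22 did not pass (median -0.078; 52.4% of all genes called), and in 24 months against 6 months 4 rose and 6 fell (19.2% called). Tia1, a stress granule protein gene, rose by 0.71 ± 0.12 from P18 to P75, fell by 0.96 ± 0.12 to 6 months and rose by 0.61 ± 0.12 to 24 months (adjusted p = 2.14e-04, 8.73e-06 and 0.00370). Hnrnpl, a splicing regulator gene, did the same, by 0.23 ± 0.085, 0.72 ± 0.085 and 0.33 ± 0.085 (adjusted p = 0.0428, 4.94e-06 and 0.0159). Nono, a paraspeckle protein gene, rose by 0.59 ± 0.076 from P75 to 6 months and fell by 0.44 ± 0.076 to 24 months (adjusted p = 1.11e-05 and 0.00199). Nova1, a neuronal splicing factor gene, fell by 0.40 ± 0.074 from P75 to 6 months (adjusted p = 2.80e-04). Msi1, chosen after its values were seen, encodes an RNA-binding protein of neural stem cells and moved as Hnrnpk did, with -0.62 ± 0.19, 1.08 ± 0.19 and -0.74 ± 0.19 in the 3 steps (adjusted p = 0.0167, 2.19e-04 and 0.0153).

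Some of these counts changed with 1 library. From P18 to P75, 3 rose without P75 replicates 1 or 3, as with only these ages in the fit, and 10 with scaling to the library total. In 24 months against 6 months the numbers that rose and fell were 2 and 3 without 6 months replicate 1 or 24 months replicate 1, and 2 and 1 without 24 months replicate 2. There, 2 fell without 6 months replicate 2 and 2 rose with scaling to the library total.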
